A study of Mus musculus with 8 samples.

Results

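The genes described here encode the proteins that start and extend polypeptide chains on the ribosome, the translation initiation factors (eIF) and elongation factors (eEF). They were chosen by name alone, as every gene in the data whose symbol begins with Eif1 to Eif6 or with Eef1 or Eef2, without pseudogenes and without the sex-linked pair Eif2s3x and Eif2s3y, which gave 61 of 19201 genes. Hippocampal RNA from 4 wild-type and 4 Mbd2-/- libraries was compared, and each library combined the bilateral hippocampi of 2 mice aged 10 to 12 weeks. Wild-type animals were C57BL/6 mice. The Mbd2-/- animals carry a constitutive deletion, present from conception in every cell, that leaves the first exon of Mbd2 transcribed, and both genotypes were littermates of heterozygous parents. Males and females were combined, and the sex of each pool is not stated. In both genotypes the RiboMinus kit took ribosomal RNA out of the total RNA, and fragments were read as pairs of 100 bases. Nothing beyond the pooling of 2 mice says what separates the libraries of a genotype, so the p-values measure the spread between these pools.

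Translation begins when eIF2 carries the initiator tRNA to the small ribosomal subunit, helped by eIF1, eIF1A, eIF3 and eIF5, while the cap-binding eIF4 proteins recruit the messenger RNA and unwind its leader. The exchange factor eIF2B recharges eIF2 with GTP, and kinases that phosphorylate eIF2 block that step. During elongation eEF1A delivers each aminoacyl-tRNA, the eEF1B subunits recharge eEF1A, and eEF2 moves the ribosome along the message. In hippocampal neurons this machinery is well known as a control point for the protein synthesis that long-lasting synaptic plasticity and memory require. MBD2, the protein missing in the mutant, binds methylated CpG in DNA.

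The libraries held 8087750 to 23790825 reads on genes. Expression is given as normalized counts, which are reads on a gene divided by a size factor that sets the libraries to a common scale. Mbd2 itself, the targeted gene, had normalized counts of 295, 363, 371 and 354 in the wild-type libraries and 244, 240, 339 and 217 in the Mbd2-/- libraries. All but 1 of the mutant libraries lay below every wild-type library, and the log2 fold change was -0.43 (SE 0.12, adjusted p = 0.0174, limma over all tested genes). An exact two-sided permutation test of the 8 values gave p = 0.0571, where 0.0286 is the smallest p that 4 against 4 allows. Mbd2 was not called when wild-type replicate 3, Mbd2-/- replicate 1 or Mbd2-/- replicate 2 was left out (adjusted p = 0.0539 to 0.0624, limma). Mbd2-/- replicate 4 stood apart from the other mutant libraries. Without it, 5156 of all tested genes were called in place of 3185.

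A larger share of the initiation and elongation factors than of all genes rose in Mbd2-/- hippocampi, few fell, and the differences were small. Of the 61 genes, 60 had a mean normalized count of at least 10 and were tested. The exception was Eif4e1b, an oocyte-type cap-binding protein, with at most 1 read in any library. The test was limma on log2(normalized count + 1) across 14504 genes, with Benjamini-Hochberg adjustment over all of them and a call at an adjusted p under 0.05. By this test 22 factors rose, 3 fell and 35 were not called. The rises were 36.7% of the 60 tested factors, where 12.0% of all tested genes rose. The falls were 5.0% of the factors, where 10.0% of all tested genes fell. The rises ran from 11.6% to 32.2%. The median log2 fold change was 0.16 over the 60 factors and -0.0001 over all tested genes, and 43 of the 60 values were positive.

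**Figure D1:**
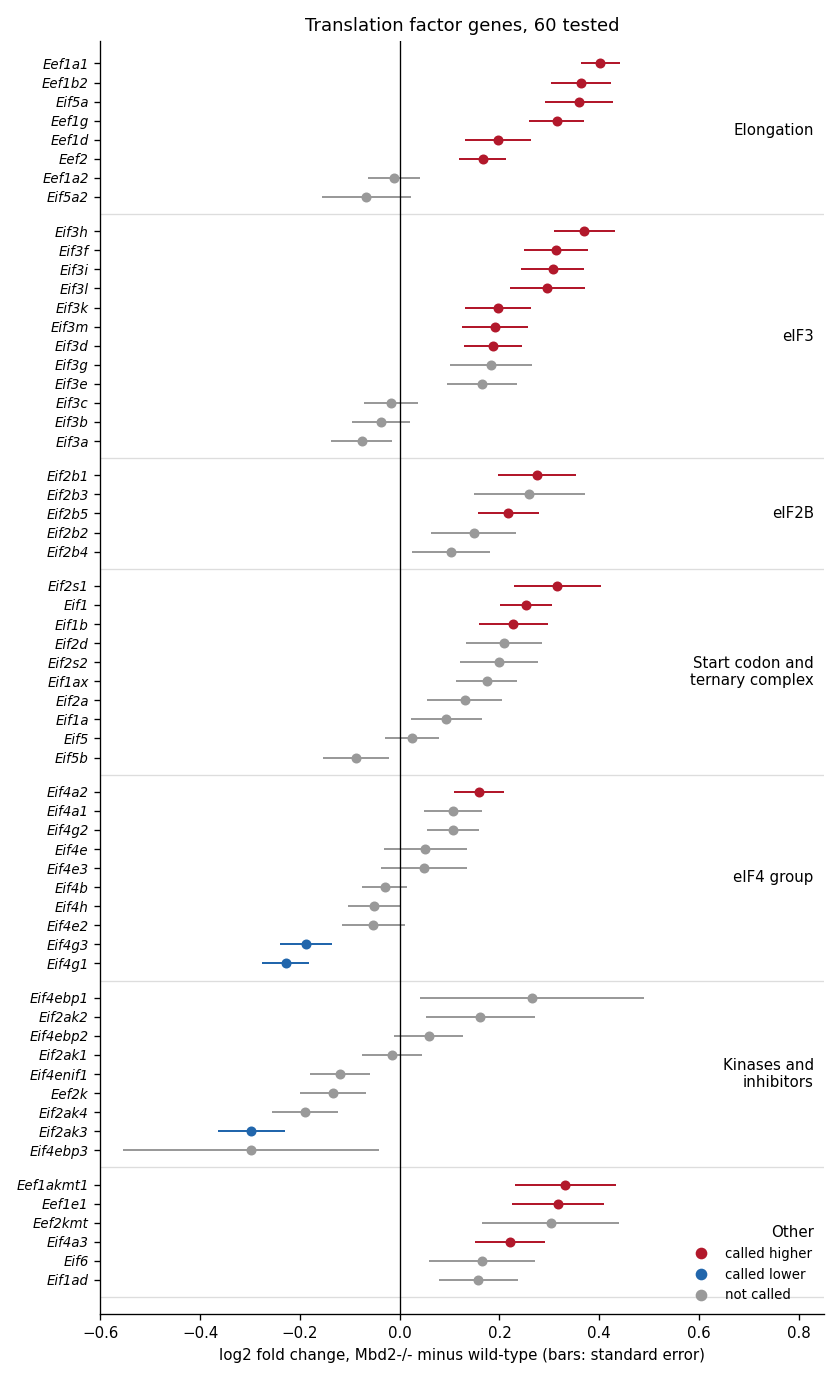
Log2 fold change (Mbd2-/- minus wild-type, horizontal axis) of each of the 60 tested factors, grouped by role, with bars of 1 standard error from 4 libraries of each genotype. Red points rose, blue points fell and grey points were not called (limma, adjusted p 0.05), and the red points sit mainly among the elongation factors and eIF3 subunits, 6 of 8 and 7 of 12.

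In 22 of the 60 factors the libraries of the genotypes did not overlap, 19 of them called genes, and 23.6% of all tested genes showed such a separation. Summed over the 61 factors, the normalized counts made up 0.938, 0.968, 0.932 and 0.943% of the wild-type libraries and 1.06, 1.07, 1.05 and 1.03% of the Mbd2-/- libraries. Every mutant library was above every wild-type library in this sum. The median deviation of the 60 factors from their wild-type mean was 0.14, 0.18, 0.18 and 0.09 on the log2 scale in Mbd2-/- replicates 1 to 4, so that replicate 4 showed the smallest shift. Without replicate 4, 28 factors rose and 4 fell, and the 22 rises and 3 falls were all among them. In that fit 2598 of 14490 tested genes rose and 2558 fell, in place of 1735 and 1450 of 14504. Leaving out any of 5 other libraries lowered the number of rises by more than 1.5 times. It fell to 13 with wild-type replicate 1 or 4 left out, and to 12 with wild-type replicate 3, Mbd2-/- replicate 1 or Mbd2-/- replicate 2 left out. Over all tested genes the rises in these 5 fits numbered 1170 to 1231, in place of 1735. Of the 22 rises, 9 were called without each library in turn, and 8 of these were also called in each of the 9 other settings that kept all libraries. Of the 35 factors that were not called, 11 were called in at least 1 of the 17 other settings.

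Markers of other cells and regions moved with the genotype. All 10 choroid plexus markers rose, and their summed normalized count was 23646 to 25348 in wild-type and 45698 to 52401 in Mbd2-/- libraries. Of the 10 thalamus markers 8 fell, from a sum of 4717 to 4884 to a sum of 3137 to 3879. Of the lists of 5 markers, 4 rose for astrocytes, 3 each for oligodendrocytes and microglia and 1 for endothelium. For hippocampal neurons 1 of 5 rose and 2 fell, and their sum, most of it from Camk2a, was 72886 to 75043 in wild-type and 86436 to 89516 in Mbd2-/- libraries. No marker on these lists was at 0 in any library, and the part of these cells in the results on translation factors was not tested. In bulk tissue, fewer cells of a type and less RNA per cell cannot be told apart.

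Among the 8 genes of elongation, 6 rose and none fell, with a median log2 fold change of 0.26. Of all tested genes 12.0% rose, and of those under 2000 bases 28.3%. Eef1a1, the widely expressed form of the factor that brings aminoacyl-tRNA to the ribosome, was by far the most abundant factor (mm9 chromosome 9, 78326256 to 78336958, minus strand). It had normalized counts of 26063, 25302, 25202 and 25925 in wild-type libraries and 32610, 35315, 33628 and 33942 in Mbd2-/- libraries. The lowest mutant library was above the highest wild-type library by more than the whole range within either genotype. The log2 fold change was 0.40 (SE 0.04, adjusted p = 9.96e-06, limma), a rise of 32.2%, and the call held in each of 17 other settings. Eef1a1 alone supplied 20.9 to 22.0% of the summed factor counts in wild-type and 24.3 to 25.9% in Mbd2-/- libraries.

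Eef1a2, the form of the same protein that neurons and muscle take up after birth, was not called. Its normalized counts were 8578, 8982, 8804 and 8824 in wild-type libraries and 9119, 8770, 9222 and 7853 in Mbd2-/- libraries. The genotypes overlapped, and the log2 fold change was -0.01 (SE 0.05, adjusted p = 0.894, limma).

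The 3 subunits of the exchange factor that recharges eEF1A, Eef1b2, Eef1d and Eef1g, all rose, where 12.0% of all tested genes did and 28.3% of those under 2000 bases, the class of Eef1b2 and Eef1g. Eef1b2, a catalytic subunit, had normalized counts of 1401, 1597, 1430 and 1430 in wild-type and 1978, 1869, 1975 and 1720 in Mbd2-/- libraries. Its genotypes did not overlap, although wild-type replicate 2 lay nearer to the mutant libraries than the other wild-type libraries did, and the log2 fold change was 0.36 (SE 0.06, adjusted p = 0.000750, limma). The scaffold subunit Eef1g had a log2 fold change of 0.31, or 0.20 with the trend on transcript length taken out of each library, and was called in both. Eef1d had one of 0.20. The call of Eef1d held only with wild-type replicate 2 or Mbd2-/- replicate 4 as the library left out, and with any of the other 6 left out the adjusted p was 0.0852 to 0.137 (limma). It was also lost with upper-quartile scaling, without the filter on low genes and with the length trend removed (adjusted p = 0.0541 to 0.0583, limma), with log2 fold changes of 0.19, 0.20 and 0.17 that were close to the value with the call.

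Eef2, the translocase, had normalized counts of 15777, 16259, 15467 and 15193 in wild-type and 18056, 17544, 18604 and 16236 in Mbd2-/- libraries. Replicate 4 of the mutants lay just below the highest wild-type library and the other 3 lay above all of them. Its log2 fold change was 0.17 (SE 0.05, adjusted p = 0.0191, limma), and the call was kept in only 3 of the 8 fits that left out 1 library. When wild-type replicate 1, 3 or 4 or Mbd2-/- replicate 1 or 2 was left out, the adjusted p was 0.0529 to 0.0733 (limma).

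Eif5a, which carries hypusine, an amino acid found in no other protein family, and helps the ribosome past stretches such as polyproline, had normalized counts of 2587, 2814, 2821 and 2608 in wild-type and 3634, 3416, 3897 and 2995 in Mbd2-/- libraries. All mutant libraries exceeded all wild-type libraries, with a log2 fold change of 0.36 (SE 0.07, adjusted p = 0.00190, limma). The value was 0.18 and still called with the length trend removed (adjusted p = 0.0168, limma). Its relative Eif5a2 had counts of 772, 758, 735 and 807 against 766, 727, 593 and 874, which overlapped, and a log2 fold change of -0.07 (SE 0.09, adjusted p = 0.633, limma). Mbd2-/- replicates 3 and 4 held the lowest and the highest of these 8 Eif5a2 values.

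**Figure D2:**
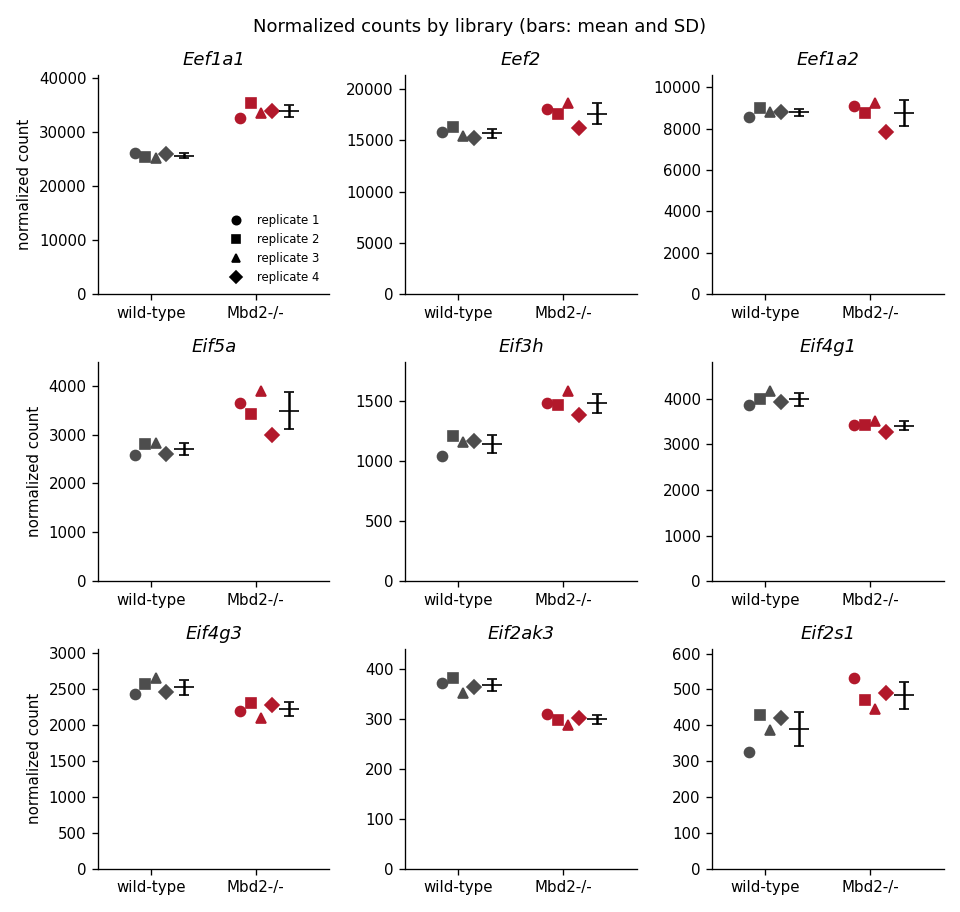
Normalized counts (vertical axes, each from 0) of 9 factors in the 4 wild-type (grey) and 4 Mbd2-/- (red) libraries, with the marker shape giving the replicate number and the bars giving mean and SD. Eef1a1, Eif5a, Eif3h and Eif2s1 separate upwards and Eif4g1, Eif4g3 and Eif2ak3 downwards without overlap, while Eef1a2 and Eef2 overlap.

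Promoters of these genes are shown because MBD2 binds methylated CpG and the members move in different directions. A promoter was in RefSeq (GRCm38.p6) for 47 of the 60 tested factors, from 250 bases before to 50 after the annotated start. CpG stood at 0.6 or more of the number that base composition alone would give in 42 of 47, which is 89.4%, against 68.2% of 11014 tested genes. The median number of CpG in the 300 bases was 25 for factors that rose, 23 for those that fell, 23 for those not called and 20 over all tested genes. The 100 bases from 70 before to 30 after the annotated start are printed here for both eEF1A genes and for Eef1b2 and Eef2 among the elongation genes, and for Eif4g1 and Eif2ak3 among the genes that fell, each 5′ to 3′ on the gene's strand with every CG in capitals. They lie at chr9:78481695-78481794 (minus strand, Eef1a1), chr2:181156986-181157085 (minus, Eef1a2), chr1:63176761-63176860 (plus, Eef1b2), chr10:81176561-81176660 (plus, Eef2), chr16:20672657-20672756 (plus, Eif4g1) and chr6:70844445-70844544 (plus, Eif2ak3).
Eef1a1: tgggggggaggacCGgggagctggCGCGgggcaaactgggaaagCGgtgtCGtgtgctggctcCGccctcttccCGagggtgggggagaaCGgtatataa
Eef1a2: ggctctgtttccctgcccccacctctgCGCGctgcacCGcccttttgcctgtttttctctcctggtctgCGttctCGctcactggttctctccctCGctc
Eef1b2: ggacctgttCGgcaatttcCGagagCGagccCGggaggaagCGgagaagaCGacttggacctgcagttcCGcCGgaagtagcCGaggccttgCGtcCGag
Eef2: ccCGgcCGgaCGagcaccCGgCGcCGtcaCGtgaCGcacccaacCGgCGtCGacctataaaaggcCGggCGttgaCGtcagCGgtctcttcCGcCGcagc
Eif4g1: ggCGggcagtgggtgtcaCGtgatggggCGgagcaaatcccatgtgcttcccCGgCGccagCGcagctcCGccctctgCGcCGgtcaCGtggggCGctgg
Eif2ak3: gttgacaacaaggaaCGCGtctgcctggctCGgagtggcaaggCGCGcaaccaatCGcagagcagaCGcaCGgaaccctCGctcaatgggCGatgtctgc

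Eef2 held 17 CG in this window, Eef1b2 and Eif4g1 held 11 each, Eif2ak3 held 10, Eef1a1 held 8 and Eef1a2 held 6. The same window of Eif3f, which rose and whose bases are not printed here, held 4. Over the 300 bases the observed number was 0.417 of that given by base composition for Eef1a2 and 0.697 for Eef1a1. Eif2b5, which rose, had 0.411. No methylation was measured in these libraries, and the annotated starts may not be those used in the hippocampus.

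The eIF3 complex is the scaffold that holds the small subunit together with the other initiation factors. Of its 12 tested subunits, 7 rose (Eif3d, Eif3f, Eif3h, Eif3i, Eif3k, Eif3l and Eif3m) and none fell, with a median log2 fold change of 0.19. The background was 12.0% of all tested genes and 28.3% of those under 2000 bases, and the subunits had a median transcript of 1937 bases. Eif3h, a subunit with an MPN domain, had normalized counts of 1039, 1211, 1159 and 1167 in wild-type and 1480, 1461, 1584 and 1385 in Mbd2-/- libraries. The mutant libraries were all above the wild-type libraries, and the log2 fold change was 0.37 (SE 0.06, adjusted p = 0.000715, limma), the largest value of any initiation factor that was called. It was called in each of 17 other settings, and so were Eif3f, Eif3i and Eif3l, with log2 fold changes of 0.31, 0.31 and 0.30. For Eif3i the removal of the length trend used a longest transcript of 2323 bases, while its longest coding transcript has 1123. Removing the length trend lowered Eif3h to 0.17 and Eif3l to 0.18 (adjusted p = 0.0376 and 0.0495, limma). The calls of Eif3d, Eif3k and Eif3m, with log2 fold changes of 0.19, 0.20 and 0.19, were each lost in 6 or 7 of the 8 fits that left out 1 library (adjusted p = 0.0561 to 0.150, limma), and all of them were lost without wild-type replicate 2, 3 or 4 or Mbd2-/- replicate 1 or 2. With the length trend removed none of these 3 was called, at 0.08 for Eif3d, -0.07 for Eif3k, which changed direction, and 0.09 for Eif3m (adjusted p = 0.344, 0.395 and 0.409, limma). Eif3k and Eif3m were also lost with upper-quartile scaling and without the filter on low genes (adjusted p = 0.0536 to 0.0638, limma), at values of 0.18 to 0.20, and Eif3m with the replicate number as a block (adjusted p = 0.0590, limma).

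Other subunits of eIF3 were not called. Eif3a, Eif3b and Eif3c, the largest subunits, had log2 fold changes of -0.08, -0.04 and -0.02, and none was called. Eif3e and Eif3g had positive values of 0.16 and 0.18 and were not called either (adjusted p = 0.105 and 0.121, limma), although Eif3e was called without Mbd2-/- replicate 3 and Eif3g without replicate 4 (adjusted p = 0.0156 and 0.00105, limma). Eif3a stood at 413 and Eif3h at 913 normalized counts per kilobase of transcript in wild-type hippocampi, and at 393 and 1179 in Mbd2-/- hippocampi. No test of the difference between subunits was made.

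Among the 10 genes of start codon selection and the ternary complex of eIF2, GTP and initiator tRNA, 3 rose, none fell and 9 values were positive, where 12.0% of all tested genes rose. Eif1, which keeps scanning ribosomes from starting at the wrong codon, had normalized counts of 2082, 2116, 2079 and 2118 in wild-type and 2664, 2526, 2523 and 2305 in Mbd2-/- libraries. The wild-type libraries agreed closely and all mutant libraries lay above them, with a log2 fold change of 0.25 (SE 0.05, adjusted p = 0.00315, limma). Removing the length trend left a value of 0.06 that was not called (adjusted p = 0.381, limma). Its near copy Eif1b also rose, from 746, 783, 822 and 803 to 1041, 868, 958 and 839, without overlap. The log2 fold change of Eif1b was 0.23 (adjusted p = 0.0268, limma), and the call was lost when wild-type replicate 1, 2 or 4 or Mbd2-/- replicate 1 was left out (adjusted p = 0.0577 to 0.102, limma). The value turned negative, at -0.04 (adjusted p = 0.668, limma), once the length trend was removed.

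Eif2s1, the alpha subunit of eIF2 that the stress kinases phosphorylate, had normalized counts of 325, 427, 387 and 420 in wild-type and 532, 469, 445 and 489 in Mbd2-/- libraries, and it is 1 of the genes named after their values were seen. The genotypes did not overlap and the log2 fold change was 0.32 (SE 0.09, adjusted p = 0.0165, limma), a call that was lost when replicate 1 of either genotype was left out (adjusted p = 0.0638 to 0.0663, limma). Eif2s2, the beta subunit, had a log2 fold change of 0.20 and was not called (adjusted p = 0.0786, limma), but it was with the length trend removed and without replicate 3 or 4 of the mutants (adjusted p = 0.0179 to 0.0350, limma). Eif1ax missed the threshold narrowly, with a log2 fold change of 0.17 and an adjusted p of 0.050045 (limma), although its mutant libraries, at 780 to 909, all lay above the wild-type libraries at 713 to 748. It was called with TMM scaling, a minimum mean of 50, edgeR, DESeq2 and the length trend removed, and without Mbd2-/- replicate 3 (adjusted p = 0.00311 to 0.0487). For Eif1a, Eif2a, Eif2d, Eif5 and Eif5b the log2 fold changes ran from -0.09 to 0.21, with no call.

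The 5 subunits of eIF2B, the exchange factor for eIF2, all had positive log2 fold changes, from 0.10 to 0.27, and 2 of them rose, where 12.0% of all tested genes did. Eif2b5, the catalytic epsilon subunit, had normalized counts of 692, 695, 713 and 719 in wild-type and 802, 835, 891 and 755 in Mbd2-/- libraries. These did not overlap, and the log2 fold change was 0.22 (SE 0.06, adjusted p = 0.0187, limma). The call was lost without wild-type replicate 1 or 2 or Mbd2-/- replicate 2 (adjusted p = 0.0503 to 0.0603, limma). Eif2b1, the alpha subunit, rose by 0.27 on the log2 scale, and that call was lost with wild-type replicate 3 or Mbd2-/- replicate 2 left out (adjusted p = 0.0624 to 0.0700, limma) and with the length trend removed, where the value was 0.18 (adjusted p = 0.116, limma).

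The eIF4 group, which binds the cap and prepares the messenger RNA, had calls in both directions. Of its 10 tested genes, 1 rose and 2 fell, and the median log2 fold change was 0.01. These shares of 10% and 20% stand beside 12.0% and 10.0% of all tested genes, and beside 20.5% that fell among genes over 4000 bases. Eif4g1, the large scaffold that joins the cap-binding protein to eIF3, had normalized counts of 3856, 3991, 4174 and 3920 in wild-type and 3417, 3416, 3507 and 3268 in Mbd2-/- libraries (mm9 chromosome 16, 20668386 to 20692957, plus strand). Every mutant library was below every wild-type library, and the log2 fold change was -0.23 (SE 0.05, adjusted p = 0.00318, limma). The other canonical scaffold, Eif4g3, had counts of 2424, 2563, 2655 and 2454 against 2187, 2306, 2094 and 2277, again without overlap, with a log2 fold change of -0.19 (SE 0.05, adjusted p = 0.0172, limma). Neither scaffold was called once the length trend was taken out, where the log2 fold changes were -0.14 and -0.06 (adjusted p = 0.0645 and 0.463, limma), and Eif4g3 was also not called without wild-type replicate 3 or Mbd2-/- replicate 1 (adjusted p = 0.0696 and 0.0506, limma).

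Eif4g2, a relative of the scaffolds that lacks the site for the cap-binding protein, had counts of 7735, 8074, 7525 and 8107 in wild-type and 8291, 8430, 7885 and 9298 in Mbd2-/- libraries. Those values overlapped, and the log2 fold change was 0.11 (SE 0.05, adjusted p = 0.154, limma). With the length trend removed it was 0.23 (adjusted p = 0.000775, limma).

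Eif4a2, the neuron-rich form of the helicase that unwinds leaders, was the member of the group that rose. It had normalized counts of 7077, 7062, 6399 and 6956 in wild-type and 7450, 7756, 7351 and 8134 in Mbd2-/- libraries, with no overlap, and a log2 fold change of 0.16 (SE 0.05, adjusted p = 0.0308, limma). The call was absent with the length trend removed, where the value was 0.13 (adjusted p = 0.0857, limma), and when wild-type replicate 1, 3 or 4 or Mbd2-/- replicate 2 was left out (adjusted p = 0.0551 to 0.120, limma). The related helicase Eif4a1 had a log2 fold change of 0.11 (adjusted p = 0.201, limma) and was called without Mbd2-/- replicate 4 (adjusted p = 0.0126, limma). The cap-binding protein Eif4e had a value of 0.05 and its repressive relative Eif4e2 one of -0.05, neither called, and the helicase cofactors Eif4b and Eif4h had -0.03 and -0.05.

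Kinases and inhibitors of translation made up 9 of the tested factors, and of these 1 fell and none rose, with a median log2 fold change of -0.12. The fall was 11.1% of the group, close to the 10.0% of all tested genes that fell. Eif2ak3, also known as PERK, the kinase that phosphorylates eIF2 when unfolded proteins accumulate in the endoplasmic reticulum, had normalized counts of 372, 381, 352 and 363 in wild-type and 309, 296, 287 and 302 in Mbd2-/- libraries (mm9 chromosome 6, 70794509 to 70855239, plus strand). The mutant libraries all lay below the wild-type libraries. The log2 fold change was -0.30 (SE 0.07, adjusted p = 0.00537, limma), and the call held in each of 17 other settings, the removal of the length trend among them (-0.24, adjusted p = 0.0182, limma).

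Eif2ak4, or GCN2, the eIF2 kinase that senses uncharged tRNA, had counts of 393, 362, 402 and 390 in wild-type and 333, 345, 328 and 349 in Mbd2-/- libraries. The genotypes did not overlap, but the log2 fold change of -0.19 (SE 0.07) had an adjusted p of 0.0506 (limma) and was not called. It was called with upper-quartile scaling, with a minimum mean of 50, and with wild-type replicate 2 or Mbd2-/- replicate 4 left out (adjusted p = 0.0225 to 0.0483, limma). The heme-sensing Eif2ak1 and the RNA-sensing Eif2ak2 had log2 fold changes of -0.02 and 0.16, neither called.

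Eef2k, the calcium-dependent kinase that inactivates eEF2, had counts of 414, 458, 456 and 436 in wild-type and 419, 412, 389 and 386 in Mbd2-/- libraries. They overlapped, and the log2 fold change was -0.13 (SE 0.07, adjusted p = 0.156, limma). The 4E-BP proteins hold eIF4E away from eIF4G. Of these, Eif4ebp2, the main form in the brain, had a log2 fold change of 0.06 (SE 0.07, adjusted p = 0.583, limma). Eif4ebp1 and Eif4ebp3 had mean counts of 24.5 and 26.7 over the 8 libraries and standard errors of 0.22 and 0.26, so their values of 0.27 and -0.30 were close to 1 standard error from 0.

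The remaining 6 genes of the name rule are not core factors of either step, and 3 of them rose, where 12.0% of all tested genes did, and 28.3% of those under 2000 bases, the length class of these 3. Eef1akmt1, a methyltransferase that modifies eEF1A, had counts of 220, 190, 205 and 175 in wild-type and 243, 263, 284 and 209 in Mbd2-/- libraries. Replicate 4 of the mutants fell within the wild-type range, and the log2 fold change of 0.33 (SE 0.10, adjusted p = 0.0277, limma) was called in 2 of the 8 fits without 1 library. It was lost without wild-type replicate 2, 3 or 4 or Mbd2-/- replicate 1, 2 or 3 (adjusted p = 0.0549 to 0.101, limma), and with the length trend removed it was 0.04 (adjusted p = 0.793, limma). Eef1e1, a subunit of the complex that holds several tRNA synthetases together, had a log2 fold change of 0.32 (SE 0.09, adjusted p = 0.0215, limma) without overlap. That call was lost without wild-type replicate 1 or 3 or Mbd2-/- replicate 1 (adjusted p = 0.0622 to 0.0745, limma) and with the length trend removed (0.07, adjusted p = 0.677, limma). Eif4a3, a helicase of the exon junction complex, rose by 0.22 and was called in only 2 of the 8 fits without 1 library, those that left out replicate 3 or 4 of the mutants (otherwise adjusted p = 0.0639 to 0.119, limma). It was 0.06 and not called with the length trend removed (adjusted p = 0.566, limma). Eef2kmt, Eif1ad and Eif6 had values of 0.30, 0.16 and 0.17 with no call.

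Cytosolic ribosomal protein genes rose in these mice, and the factor genes, which span longer transcripts, allow the question of whether the rise extends to longer genes of translation. Of the 83 ribosomal protein genes, recognised by symbol (Rpl, Rps, Rplp and Rpsa, with close copies), 79 were tested and 72 rose, with a median log2 fold change of 0.41. Their median transcript was 946 bases long, and 12.0% of all tested genes and 28.3% of those under 2000 bases rose. The factors had a median of 2782 bases and reached 8134. Over all tested genes the log2 fold change fell with the length of the longest annotated transcript, with a Spearman's rho of -0.46 over 14182 genes, and rho was -0.59 over the 60 factors and -0.20 over 77 ribosomal protein genes. These correlations are across genes of the same 8 libraries and are given as descriptions.

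**Figure D3:**
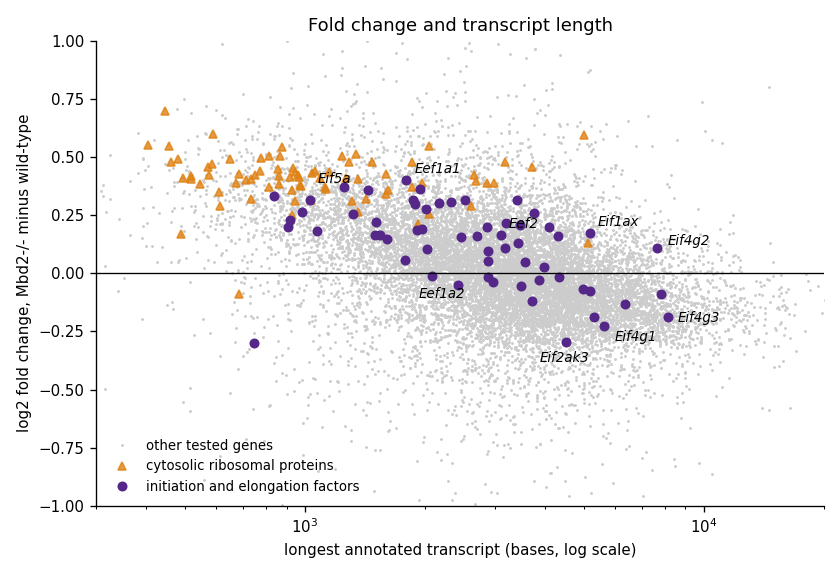
Log2 fold change (Mbd2-/- minus wild-type, vertical axis) against the longest annotated transcript (bases, log scale) for the 60 factors (purple circles), 77 ribosomal protein genes (orange triangles) and other tested genes (grey), of which 129 lie beyond the axes. Values fall from left to right in the grey cloud and in the factors, with Eef1a1 and Eif5a at the upper left and Eif4g1, Eif4g3 and Eif2ak3 below 0 at the right.

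Among factors with a longest transcript under 2000 bases, 14 of 21 rose and none fell, with a median log2 fold change of 0.23. In that class 28.3% of all tested genes rose and 1.5% fell, with a median of 0.18, and 61 of 66 ribosomal protein genes rose. Between 2000 and 4000 bases, 8 of 26 factors rose and none fell, with a median of 0.12. All tested genes of that length rose in 9.51% and fell in 6.4% of cases, with a median of 0.01, and all 9 ribosomal protein genes there rose.

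Over 4000 bases, none of 13 factors rose and 3 fell, with a median of -0.08. There 4.16% of all tested genes rose and 20.5% fell, with a median of -0.10. Only 2 ribosomal protein genes were annotated at such a length, and 1 of them rose. The longest transcript can be a non-coding one, and coding lengths were not taken for the ribosomal protein genes of any class. Their counts by class therefore do not show whether ribosomal protein genes with long coding transcripts rose. The share of factors that rose was thus above that of all genes in the shorter classes, at 66.7% and 30.8%. Calls depend on the expression level of a gene as well as on its fold change, and the shares were not matched for level. Under 2000 bases the median log2 fold changes were 0.23 for the factors and 0.18 for all tested genes. In the longest class 23.1% of the factors fell, near the share of all genes of that length. The 3 factors that fell, Eif2ak3, Eif4g1 and Eif4g3, had transcripts of 4513, 5638 and 8134 bases. When lengths were taken from protein-coding transcripts only, an alternative added after the data had been seen, 15 of 23, 7 of 25 and 0 of 12 factors rose in the 3 classes, and the 3 falls were again in the longest. All tested genes rose in 29.2%, 8.87% and 3.85% of cases in these classes, and fell in 1.36%, 6.75% and 21.3%, beside 25.0% of the factors in the longest class.

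**Figure D4:**
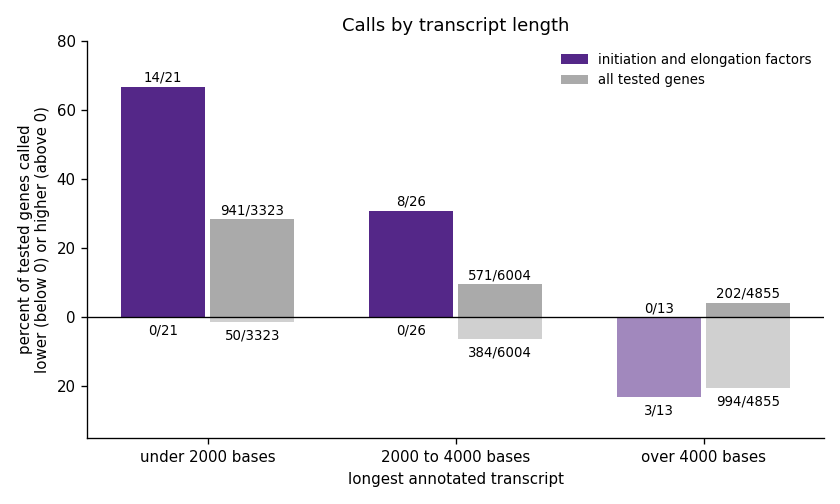
Percent of tested genes that rose (upward bars) or fell (downward, lighter bars) in Mbd2-/- hippocampi in 3 classes of longest transcript, for the factors (purple) and all tested genes (grey), with counts on the bars. The factors reach 66.7% and 30.8% upwards in the shorter classes, above the grey bars at 28.3% and 9.51%, and 0% in the class over 4000 bases.

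A trend on transcript length was also removed from each library before the same limma fit. Then 15 factors rose and 1, Eif2ak3, fell, and the median log2 fold change was 0.06. The background was 8.04% higher and 6.85% lower of 14182 genes. Of the 22 rises 11 remained. Those lost were Eef1akmt1, Eef1d, Eef1e1, Eif1, Eif1b, Eif2b1, Eif3d, Eif3k, Eif3m, Eif4a2 and Eif4a3, of which Eif1b and Eif3k turned negative, while Eef1d and Eif4a2 kept values of 0.17 and 0.13. Also called were Eif1ax, Eif2d, Eif2s2 and Eif4g2, genes whose longest transcripts run from 3465 to 7646 bases. Eif2s2 entered with 4102 bases and went from 0.20 to 0.24, while its longest coding transcript has 2542 bases. The elongation genes kept 5 rises of 8, with Eef1a1 at 0.28 (adjusted p = 0.000170, limma), and the eIF3 subunits 4 of 12. Of the 77 ribosomal protein genes with a length, 37 were called higher both before and after the removal and Rps15a only after it. Rps14 was called lower (-0.42, adjusted p = 2.01e-05, limma). The median of the 77 genes was 0.16. Rpl24 and Rps15a entered with 4999 and 5130 bases, and their values went from 0.59 to 0.67 and from 0.13 to 0.21. The trend was fitted over all genes, the factors and the ribosomal protein genes included. It used the longest annotated transcript, coding or not, and was not refitted on coding lengths.

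Related factors were compared in 6 pairs within each library, which cancels any scaling of the library but not a trend on transcript length. The log2 ratio of Eef1a1 to Eef1a2 was 1.60, 1.49, 1.52 and 1.55 in wild-type and 1.84, 2.01, 1.87 and 2.11 in Mbd2-/- libraries. All mutant ratios were higher, by 0.41 on average, and the exact two-sided permutation p was 0.0286, the smallest that 4 against 4 allows, or 0.171 after Benjamini-Hochberg adjustment over the 6 pairs. The ratio of Eif5a to Eif5a2 was higher by 0.43 (exact permutation p = 0.0857, adjusted 0.257), with Mbd2-/- replicate 4 inside the wild-type range, and without Mbd2-/- replicate 3 the difference was 0.27. For Eif4a1/Eif4a2, Eif1/Eif1b, Eif4g1/Eif4g3 and Eif4e/Eif4e2 the differences ran from -0.05 to 0.10 with exact permutation p from 0.400 to 0.686. No pair passed the adjusted threshold.

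**Figure D5:**
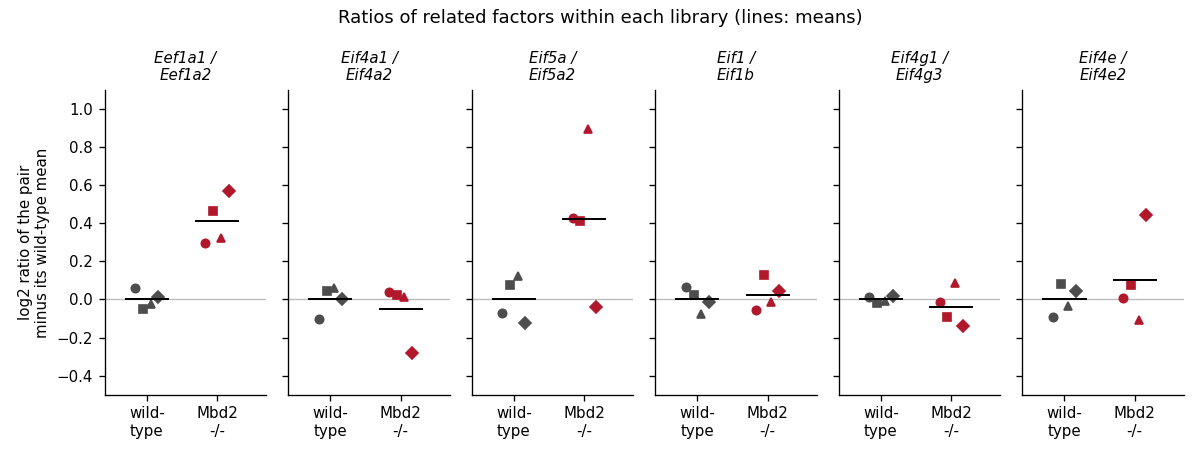
Log2 ratio of 2 related factors within each library, minus the wild-type mean of that ratio (vertical axis), for 6 pairs in 4 wild-type (grey) and 4 Mbd2-/- (red) libraries, with marker shapes for replicates 1 to 4 (circle, square, triangle, diamond) and lines at the means. Only the ratio of Eef1a1 to Eef1a2 separates the genotypes, by 0.41 on average.

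Levels can be ordered per length. In wild-type hippocampi Eef1a1 had 14283 normalized counts per kilobase of longest transcript, followed by Eef2 with 5059, Eef1a2 with 4221, Eif4a2 with 2538, Eif5a with 1884, Eif4h with 1881 and Eif1 with 1588. Eif5a and Eif4h did not differ beyond their spread in wild-type libraries. In Mbd2-/- hippocampi Eef1a1 reached 18882 per kilobase, Eef2 5684, Eef1a2 4194, Eif4a2 2833, Eif5a 2426, Eif1 1895 and Eif4h 1819, and there the gap between Eif1 and Eif4h lay within their spread.

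Messenger RNAs with a 5′ terminal oligopyrimidine (TOP) leader encode ribosomal proteins and several of these factors, and their translation is known to be set by mTOR. On a list of such genes outside the ribosomal proteins, drawn from general knowledge and not from these data, 11 of 15 tested genes rose and none fell. Of all tested genes 12.0% rose, and of those under 2000 bases 28.3%. The 9 factors on that list rose in 7 cases and the 51 tested factors off it in 15. With the length trend removed the counts were 6 of 9 and 9 of 51, where 8.04% of all genes were higher. The factors on the list were shorter, with a median transcript of 1939 bases against 2881. Eif4b and Eif3e were the factors on the list that were not called.

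The mTOR pathway genes themselves rose in 1 and fell in 3 of 20 cases, which is 5.0% and 15.0%. The shares over all tested genes were 12.0% and 10.0%, and over those with transcripts longer than 4000 bases 4.16% and 20.5%, where the list had a median length of 4550.5 bases. Mtor, the kinase, had normalized counts of 2518, 2357, 2346 and 2293 in wild-type and 2047, 2008, 2137 and 2085 in Mbd2-/- libraries, without overlap, and a log2 fold change of -0.20 (SE 0.05, adjusted p = 0.00973, limma). With the length trend removed it was -0.07 and not called (adjusted p = 0.461, limma).

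Other genes of translation rose and fell in small numbers, to be read against the 12.0% of all tested genes that rose and the 10.0% that fell. Of 9 release and recycling factors 1 rose and 1 fell, 11.1% each, and the gene with the smallest p was Mcts1, a reinitiation factor, at a log2 fold change of 0.32. Of 7 tested poly(A)-binding proteins and their regulators 2 rose, led by Paip2 at 0.33. None of 17 other initiation helpers rose and 3 fell, led by Ago1, an effector of microRNAs, at -0.21. This list had a median length of 5111 bases, and over 4000 bases 4.16% of all tested genes rose and 20.5% fell. Among 22 cytosolic aminoacyl-tRNA synthetases and their partners 2 rose and 2 fell, 9.09% each, led by the scaffold Aimp1 at 0.36, and of 10 mitochondrial translation factors 1, Mtrf1, rose by 0.35. None of Mcts1, Paip2, Ago1, Aimp1 and Mtrf1 was called with the length trend removed (adjusted p = 0.0986 to 0.910, limma), at 0.02, 0.17, -0.09, 0.14 and 0.23. Ago1 was also lost without wild-type replicate 1 or 3 or Mbd2-/- replicate 2 (adjusted p = 0.0618 to 0.0744, limma). Mtrf1 was called in only 2 of the 8 fits without 1 library, those without wild-type replicate 2 or Mbd2-/- replicate 2, and was lost without the filter on low genes, in DESeq2 and with the replicate block (adjusted p = 0.0546, 0.105 and 0.0600). The median log2 fold changes of these 5 lists lay between -0.09 and 0.12, against 0.16 for the initiation and elongation factors, and no test between lists was made.

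Some factor genes share sequence with processed copies elsewhere in the genome, which can draw reads away or add them. Of the windows of 100 bases in the longest coding transcript, the share with an exact match elsewhere in mm9 was 68.0% for Eif4a1, 52.8% for Eef1g, 37.1% for Eef1a1, 30.3% for Eif1 and 17.6% for Eif4a2. It was 12.3% for Eif3h, 2.24% for Eif5a, 1.25% for Eef1b2 and 0.067% for Eef2. No window matched elsewhere for Eef1a2, Eif4g1, Eif4g3 or Eif2ak3. How the authors' counting treated reads with several matches is not given in the sources used here, and the values of the genes with many shared windows are uncertain to that extent.

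Several factor genes host small RNAs in their introns or exons. Snora81, which guides the modification of ribosomal RNA and lies in Eif4a2, had normalized counts of 71.9, 159, 344 and 128 in wild-type and 767, 599, 633 and 364 in Mbd2-/- libraries. It differed without overlap by 1.92 on the log2 scale (SE 0.51, adjusted p = 0.0410, limma), while its host differed by 0.16, and the call was lost with any library but wild-type replicate 3 or Mbd2-/- replicate 4 left out (adjusted p = 0.0662 to 0.103, limma). It was also lost without the filter on low genes, with the replicate number as a block and with the length trend removed (adjusted p = 0.0533, 0.0981 and 0.0883, limma), where the differences were 1.92, 1.92 and 1.40. Snora28 in Eif5 had a log2 fold change of 0.41 (adjusted p = 0.243, limma) beside 0.02 for its host. Snora41 in Eef1b2, Snord37 in Eef2, Snord2 in Eif4a2, Snord66 in Eif4g1 and Mir703 in Eef1a1 had mean counts under 10 and were not tested.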

How the data were processed

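The deposited signal of each library was made by the authors as reads on a gene divided by a DESeq2 size factor, after they removed duplicated reads and aligned the rest to mm9 with STAR. Tool versions, the counter and its strand setting are not given in the sources used here. The table also holds the authors' own DESeq2 comparison (means, fold changes, p-values), which was not used. All values (100%) were whole reads to within 0.01 of a read once divided by the library's smallest value above 0, and reads recovered in this way served the count models only. Totals of 8087750 to 23790825 reads cover counting error only, and the spread between pools sets the precision.

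A gene entered the test if its normalized counts averaged 10 or more over the libraries. Values were compared as log2(normalized count + 1) in limma 3.58.1 (R 4.3.3, mean-variance trend, robust), without a block, with Benjamini-Hochberg adjustment over 14504 genes and a threshold of 0.05. Fold changes are on that scale and slightly understate low genes. The script was tested on simulated data. Ratios of related genes had exact permutation tests (scipy 1.17.1).

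Alternatives were TMM and upper-quartile scaling, a pseudocount of 0.5, no filter, a minimum of 50, edgeR 4.0.16, DESeq2 1.42.0, the replicate number as a block, a loess trend on log2 transcript length (span 0.5) taken out of each library, and each library left out in turn. Of 19201 symbols, 18097 matched the GENCODE vM1 annotation of mm9, which gave the lengths.

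The members, lists, pairs and the rule for named genes were chosen with earlier results of these data known. The rule names Mbd2, the 5 largest rises and falls, the 5 most abundant members, the pairs, the kinases and inhibitors, the called member with the smallest p of each role and the gene with the smallest p of each list. The other members were named after their values were seen.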

Additional observations from a re-analysis of the deposited data

Results flagged for a closer look

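In 2 of 56 groups of 4 libraries, a group being 1 named gene in 1 genotype, a single library lay far from the rest by Dixon's criterion, and chance alone gives about 1 in 20. Eef1b2 had 1597 normalized counts in wild-type replicate 2, and the nearest other wild-type library had 1430. Eif2ak1 had 722.7 in Mbd2-/- replicate 1, and the nearest other mutant library had 681.3.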

How the results depend on the processing

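The number of factors that rose was 15 to 23 against 22 under the 9 settings that kept all libraries and 12 to 28 when 1 library was left out, and that of factors that fell was 1 to 4 and 2 to 4 against 3. Over all tested genes the rises numbered 1170 to 2598 when 1 library was left out, against 1735. Removing the length trend gave the fewest rises among the settings that kept all libraries, with 1 fall and a median log2 fold change of 0.0608. It left 38 ribosomal protein genes higher (37 of the earlier 72) and 1 lower, and 5 higher and 3 lower genes on the comparison lists in place of 10 and 9. It also reversed Eif1b to -0.0412 and Eif3k to -0.0738, and ended 11 of the 22 rises. Leaving out 1 library gave 6 to 10 higher and 5 to 19 lower genes on those lists, 19 without Mbd2-/- replicate 4, and a log2 fold change of Mbd2 from -0.56 to -0.35. Leaving out wild-type replicate 3 or replicate 1 or 2 of the mutants ended the Mbd2 call (adjusted p = 0.0539 to 0.0624, limma). Same-numbered libraries showed no clear shared deviation, with correlations of -0.10, -0.06, 0.07 and 0.04. Whether libraries of the same number were prepared together is not stated, and these correlations cannot show it. With the number as a replicate block 21 factors rose and 3 fell, and 3192 genes were called in place of 3185. The causes of these shifts were not tested. With 4 pools a genotype and changes this small, a factor that was not called cannot be taken as equal between the genotypes.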
